A study of Mus musculus with 18 samples.

Results

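The primary (azurophil) granule genes Elane, Prtn3, Ctsg and Mpo encode 3 serine proteases and a peroxidase that promyelocytes, the early neutrophil precursors of the bone marrow, make and store. These 4 genes were taken by name from 19505 genes measured in RNA of mouse bone marrow preparations, and each was read by 1 probe set. The preparations came from 18 mice, 1 array per mouse. They came from 5 NeuT mice and 5 BALB/c mice at 12 weeks of age, and from 4 NeuT mice and 4 BALB/c mice at 24 weeks. NeuT mice have the BALB/c background and a transgene of activated rat Erbb2 (HER2/neu), in the published line under the mouse mammary tumour virus promoter, and develop breast tumours. The labels give the NeuT mice as tumor-bearing at both ages, in the early stage of breast tumorigenesis at 12 weeks and the late stage at 24 weeks, and the BALB/c mice of the same ages as controls. What the transgene does and what the tumours do cannot be told apart. Marrow of femurs and tibias was depleted with immunomagnetic beads of cells carrying CD45, Ter119, CD11b, CD11c, CD3, Gr1 or B220, and the product, typed by flow cytometry as CD45-, CD29+ and CD44+, is labelled as bone marrow mesenchymal cells. The comparisons ask whether the 4 genes differ between NeuT and BALB/c preparations at each age and between ages.

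Neutrophils carry several kinds of granule, filled one after another as the cell matures. Primary granules form at the promyelocyte stage and hold neutrophil elastase (Elane), proteinase 3 (Prtn3), cathepsin G (Ctsg) and myeloperoxidase (Mpo). Secondary granules with lactoferrin and lipocalin 2 form at the myelocyte stage, when transcription of the primary granule genes is shut down, so transcripts of these 4 genes mark early precursors rather than mature neutrophils. The 3 proteases are cut to their active form by cathepsin C, and myeloperoxidase makes hypochlorous acid from chloride and hydrogen peroxide.

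The promoters of the 4 genes are shown because their transcripts are made together at the same stage, and because all 4 hold the same short motif. The sequences are those of RefSeq on mouse build GRCm38.p6, from 250 bases before to 50 bases after the gene's start, 5′ to 3′ on the gene's strand. Elane lies on the plus strand at chr10:79886062-79886361, Prtn3 on the plus strand at chr10:79879417-79879716, Ctsg on the minus strand at chr14:56102525-56102824 and Mpo on the plus strand at chr11:87793534-87793833. Capitals mark AGGAAGT, a motif bound by PU.1 and other ETS factors.
Elane: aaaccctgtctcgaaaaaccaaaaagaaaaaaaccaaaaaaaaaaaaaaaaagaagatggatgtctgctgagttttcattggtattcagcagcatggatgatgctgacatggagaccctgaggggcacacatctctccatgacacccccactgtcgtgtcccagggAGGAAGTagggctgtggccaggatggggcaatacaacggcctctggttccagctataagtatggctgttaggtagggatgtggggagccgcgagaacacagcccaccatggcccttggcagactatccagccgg
Prtn3: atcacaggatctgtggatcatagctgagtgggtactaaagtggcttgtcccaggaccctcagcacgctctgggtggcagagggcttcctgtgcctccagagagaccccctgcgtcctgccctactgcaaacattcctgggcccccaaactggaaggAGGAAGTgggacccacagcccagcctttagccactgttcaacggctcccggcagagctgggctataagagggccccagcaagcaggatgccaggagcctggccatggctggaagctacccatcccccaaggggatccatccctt
Ctsg: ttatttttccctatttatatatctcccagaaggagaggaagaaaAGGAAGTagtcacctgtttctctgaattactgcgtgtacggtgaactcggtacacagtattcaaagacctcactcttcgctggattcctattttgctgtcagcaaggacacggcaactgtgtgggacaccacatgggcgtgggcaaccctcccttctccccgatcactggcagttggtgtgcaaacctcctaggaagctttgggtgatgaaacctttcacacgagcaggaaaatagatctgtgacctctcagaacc
Mpo: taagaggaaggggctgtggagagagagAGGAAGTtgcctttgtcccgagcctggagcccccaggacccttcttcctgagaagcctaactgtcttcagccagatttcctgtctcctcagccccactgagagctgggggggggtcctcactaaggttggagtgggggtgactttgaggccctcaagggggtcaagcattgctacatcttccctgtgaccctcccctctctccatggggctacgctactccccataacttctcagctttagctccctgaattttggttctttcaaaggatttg
The motif begins 84 bases upstream of the start in Elane, 94 in Prtn3, 206 in Ctsg and 223 in Mpo. Searched on both strands, AGGAAGT is held by 4 of the 4 promoters and by 9.35% of 32851 mouse promoters of the same length. The MYB motif AACNG is also held by all 4, and by 80.3% of the promoters. The C/EBP motif TTGCNNAA was found in 0 of the 4 (10.8% of promoters) and the RUNX motif TGTGGT in Ctsg alone (16.8% of promoters). Only these exact letters were searched, so a site with other letters would be missed. The motifs were chosen after the sequences had been read, the matches are descriptions of these letters and not sites of binding, and no match overlapped AGGAAGT. Prtn3 and Elane are next to each other on chromosome 10, with 3137 bases between the end of Prtn3 and the start of Elane.

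Signals are given as log2 values of the RMA summary (robust multi-array average), so a difference of 1 is a doubling of signal, and levels of different genes are not compared since each probe set has its own brightness. All 4 genes exceeded 10.4, below which 95% of the negative controls lie, on every array, with signals of 12.83 to 14.24. Of 12 stromal markers 8 lay above the negative control median of 7.34 on every array and 0 above 10.4 on every array. Lepr, the leptin receptor of marrow stromal cells, had signals of 5.20 to 5.80, under that median. Col3a1, Lum and Adipoq also lay under it on at least 1 array. The other 8 were brighter, among them Col1a1 (9.69 to 10.23), Vcam1 (9.53 to 10.31), Cxcl12 (9.04 to 9.45) and Dcn (8.98 to 11.05). Above 10.4 on every array were also 0 of 6 T and NK cell, 2 of 9 monocyte and 2 of 8 B-cell markers. So were 4 of 7 erythroid markers, among them Car1 (12.36 to 13.09), and 5 of 7 cycling-cell markers. Ptprc, which encodes the depleted antigen CD45, had signals of 11.70 to 12.45. In bulk RNA fewer cells of a type and less RNA per cell cannot be told apart.

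BALB/c 24-week replicate 1 stood apart from the other 17 arrays at the bright end of the scale. Its highest signal was 13.92, against 14.49 to 14.58 on the other arrays, and the mean of the 100 brightest other genes was 13.16, against 13.39 to 13.51. Its median over all genes was 8.43, against 8.50 to 8.56. Since the signals of the 4 genes lie at this end of the scale, their 24-week results are also given without this array. Whether signals this close to the top of the scale understate differences was not tested.

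Over both ages together, Prtn3 and Ctsg were higher in NeuT than in BALB/c preparations, by 1.20-fold and 1.24-fold, while the differences of Elane and Mpo, 1.11-fold and 1.07-fold, did not pass the test. At each age taken alone none of the 4 genes passed, and the background share of genes called was 3.84% at 12 weeks and 1.40% at 24 weeks. At an unadjusted p under 0.05, 2 of the 4 genes at 12 weeks (21.0% of all genes) and 4 of the 4 at 24 weeks (13.2%) would count. Without BALB/c 24-week replicate 1, Prtn3 and Ctsg had an unadjusted p of 0.00801 and 0.00712 at 24 weeks (limma). Elane and Mpo were then no longer under 0.05. The share of all genes under 0.05 in that fit is not given here, so these values have no background beside them. The tests were limma's moderated tests with Benjamini-Hochberg adjustment over all 19505 genes, and a gene was called at an adjusted p under 0.05.

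**Figure D1:**
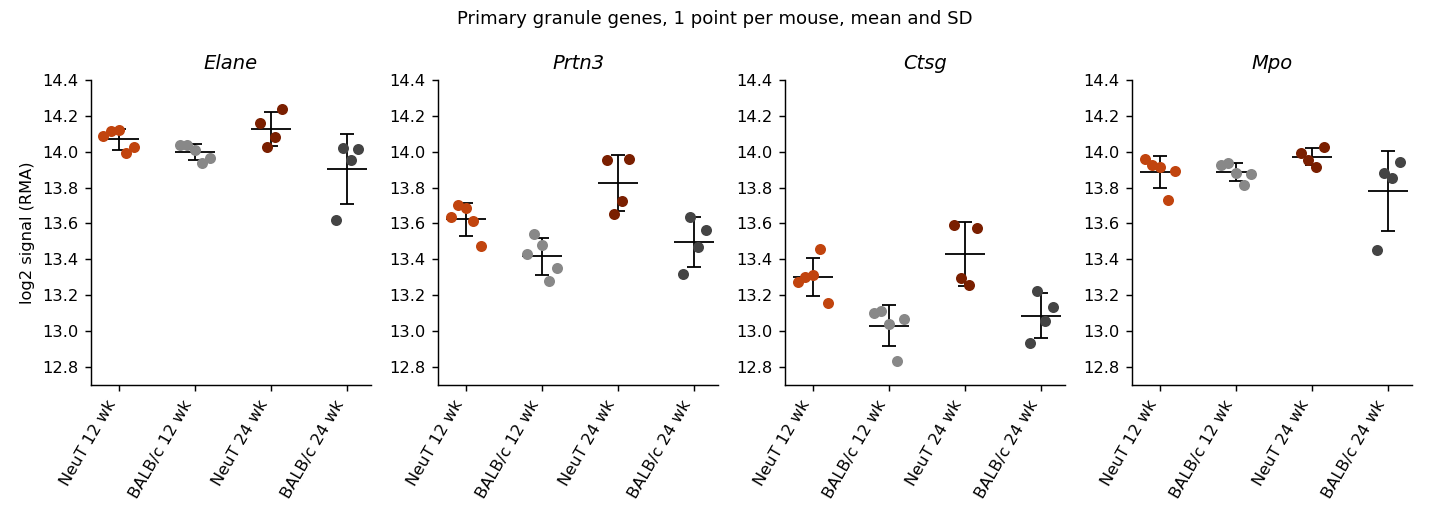
Log2 RMA signal of Elane, Prtn3, Ctsg and Mpo in each mouse (points), with the group mean and SD (bars), for NeuT and BALB/c mice at 12 and 24 weeks. For Ctsg every NeuT mouse, from 13.16 upward at 12 weeks and from 13.26 upward at 24 weeks, lies above every BALB/c mouse of its age, and the low BALB/c 24-week point of Elane (13.62) and Mpo (13.45) is replicate 1.

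Ctsg encodes cathepsin G, a chymotrypsin-like protease. At 12 weeks its log2 signals were 13.27, 13.30, 13.31, 13.46 and 13.16 in NeuT mice, against 13.10, 13.11, 13.04, 12.83 and 13.07 in BALB/c mice. At 24 weeks they were 13.59, 13.30, 13.26 and 13.57 in NeuT mice, against 12.93, 13.23, 13.05 and 13.13 in BALB/c mice. The groups did not overlap at either age. At 12 weeks Ctsg averaged 13.30 ± 0.11 in NeuT and 13.03 ± 0.11 in BALB/c mice (SD, n = 5 each), a log2 difference of 0.27 ± 0.084 (SE; limma, adjusted p = 0.0686). At 24 weeks it averaged 13.43 ± 0.18 in NeuT and 13.09 ± 0.12 in BALB/c mice (SD, n = 4 each), a difference of 0.34 ± 0.093 (limma, adjusted p = 0.0710). Neither difference passed the threshold on its own. Averaged over both ages, the NeuT effect on Ctsg was 0.31 ± 0.063 on the log2 scale, or 1.24-fold with a 95% confidence interval of 1.13 to 1.35 (limma, adjusted p = 0.00354). Taken alone, the gene gave an exact two-sided permutation p of 0.00794 at 12 weeks and of 0.0286 at 24 weeks, each the smallest that its design allows.

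Prtn3 encodes proteinase 3, an elastase-like protease and the target of autoantibodies in human vasculitis. Its log2 signals at 12 weeks were 13.64, 13.70, 13.69, 13.62 and 13.47 in NeuT mice, against 13.43, 13.54, 13.48, 13.28 and 13.35 in BALB/c mice. At 24 weeks they were 13.95, 13.65, 13.73 and 13.96 in NeuT mice, against 13.32, 13.63, 13.47 and 13.56 in BALB/c mice. At 12 weeks the lowest NeuT mouse lay within the BALB/c range, and at 24 weeks the groups did not overlap. Prtn3 averaged 13.62 ± 0.092 in NeuT and 13.42 ± 0.10 in BALB/c mice at 12 weeks (SD, n = 5 each), a difference of 0.21 ± 0.080 (limma, adjusted p = 0.140). At 24 weeks it averaged 13.82 ± 0.16 in NeuT and 13.50 ± 0.14 in BALB/c mice (SD, n = 4 each), a difference of 0.33 ± 0.090 (limma, adjusted p = 0.0726). Averaged over both ages the NeuT effect was 0.27 ± 0.060, or 1.20-fold with a 95% confidence interval of 1.10 to 1.31 (limma, adjusted p = 0.00716). The exact two-sided permutation p of Prtn3 alone was 0.0238 at 12 weeks and 0.0286 at 24 weeks.

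Elane encodes neutrophil elastase, and its human counterpart is the gene most often mutated in severe congenital and cyclic neutropenia. Its log2 signals at 12 weeks were 14.09, 14.11, 14.12, 13.99 and 14.02 in NeuT mice, against 14.04, 14.04, 14.01, 13.94 and 13.97 in BALB/c mice. At 24 weeks they were 14.16, 14.02, 14.08 and 14.24 in NeuT mice, against 13.62, 14.02, 13.95 and 14.02 in BALB/c mice. The groups overlapped at 12 weeks, and at 24 weeks they were separate only by a margin smaller than the second decimal. Elane averaged 14.07 ± 0.057 in NeuT and 14.00 ± 0.046 in BALB/c mice at 12 weeks (SD, n = 5 each), a difference of 0.070 ± 0.075 (limma, adjusted p = 0.622). At 24 weeks the averages were 14.13 ± 0.093 in NeuT and 13.90 ± 0.19 in BALB/c mice (SD, n = 4 each), a difference of 0.22 ± 0.084 (limma, adjusted p = 0.225). Averaged over both ages the Elane difference was 0.15 ± 0.056, with a 95% confidence interval of 0.030 to 0.26, and did not pass (limma, adjusted p = 0.106). The exact two-sided permutation p of Elane alone was 0.0714 at 12 weeks and 0.0286 at 24 weeks, the smallest that the 24-week design allows.

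Mpo encodes myeloperoxidase, the haem enzyme of the granule, which unlike the other 3 is not a protease. At 12 weeks its log2 signals were 13.96, 13.93, 13.91, 13.73 and 13.89 in NeuT mice, against 13.93, 13.94, 13.88, 13.81 and 13.88 in BALB/c mice. At 24 weeks they were 13.99, 13.96, 13.92 and 14.02 in NeuT mice, against 13.45, 13.88, 13.85 and 13.94 in BALB/c mice. The NeuT and BALB/c ranges of Mpo overlapped at both ages. At 12 weeks the means were 13.885 ± 0.089 in NeuT and 13.887 ± 0.050 in BALB/c mice (SD, n = 5 each), and the 95% confidence interval of the difference ran between -0.17 and 0.16 (limma, adjusted p = 0.991). At 24 weeks they were 13.97 ± 0.046 in NeuT and 13.78 ± 0.22 in BALB/c mice (SD, n = 4 each), a difference of 0.19 ± 0.089 (limma, adjusted p = 0.359). The Mpo difference over both ages was 0.093 ± 0.059, with a 95% confidence interval of -0.030 to 0.22 (limma, adjusted p = 0.335). The exact two-sided permutation p of Mpo alone was 0.976 at 12 weeks and 0.0571 at 24 weeks.

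Without BALB/c 24-week replicate 1, the 24-week differences were 0.13 for Elane, 0.079 for Mpo, 0.27 for Prtn3 and 0.29 for Ctsg. Their limma adjusted p-values were then 0.436, 0.631, 0.199 and 0.190, in that order. A larger share of the 24-week difference of Elane and Mpo than of Prtn3 and Ctsg therefore rested on this 1 array. The exact permutation p-values of the single genes at 24 weeks were 0.0571 for Elane and Prtn3, 0.0857 for Ctsg and 0.114 for Mpo without it, where 0.0286 is the smallest that 35 splits allow. Over the 100 brightest other genes the median 24-week difference was 0.11, against -0.00014 over all genes, and the median 12-week difference was 0.024, against -0.025 over all genes. Of these bright genes 0 were called at 12 weeks, 1 at 24 weeks and 4 over both ages.

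**Figure D2:**
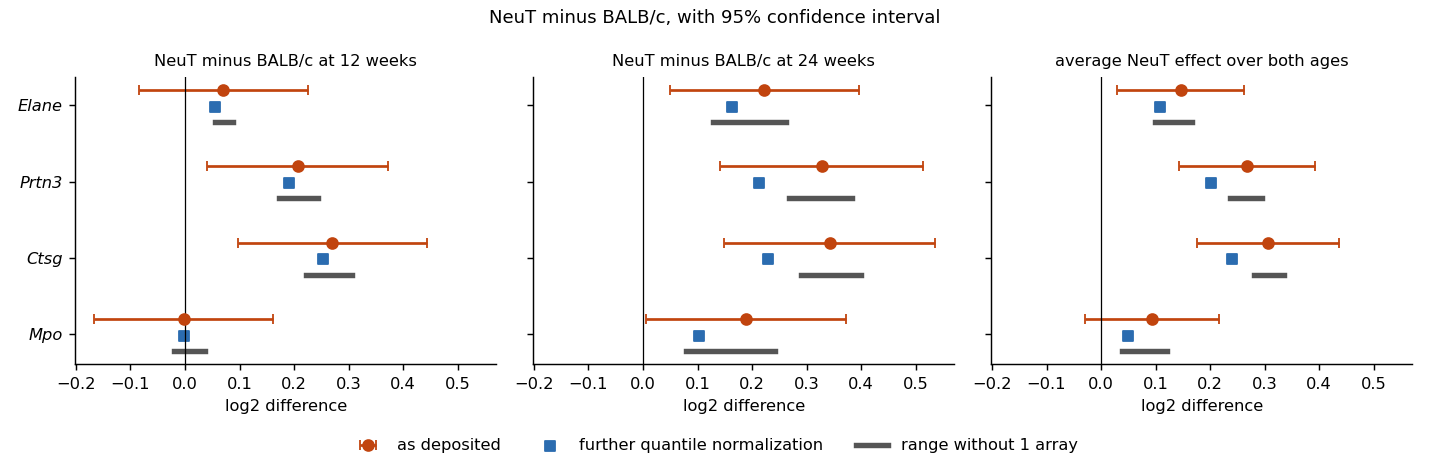
Log2 difference, NeuT minus BALB/c, of each gene at 12 weeks, at 24 weeks and averaged over both ages. Circles with bars are the limma estimate and its 95% confidence interval, squares the estimate after a further quantile normalization, and grey bars the range over fits that leave out 1 array; the averaged estimates are 0.31 for Ctsg, 0.27 for Prtn3, 0.15 for Elane and 0.093 for Mpo.

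Over both ages 2 of the 4 genes were called, and 8.56% of all genes were called in either direction and 6.47% as higher. Prtn3 and Ctsg remained called in all 18 fits that left out 1 array and in all 9 other settings, with adjusted p-values of 0.00301 to 0.0247 and 0.00244 to 0.0381 for Prtn3 and of 0.00194 to 0.0133 and 0.00132 to 0.0265 for Ctsg (limma). Elane and Mpo were called in none of these fits. In 1 of the 9 other settings, averaged probe sets, the signals of the 4 genes were unchanged, since each has 1 probe set. The groups did not overlap for 1 of the 4 genes at 12 weeks (Ctsg) and for 3 of the 4 at 24 weeks (Elane, Prtn3 and Ctsg), with NeuT higher. Over all genes that share was 4.63% at 12 weeks and 4.95% at 24 weeks. Without BALB/c 24-week replicate 1 the same 3 genes did not overlap at 24 weeks, against 5.59% of all genes. At 12 weeks Ctsg passed without NeuT 12-week replicate 5 (limma, adjusted p = 0.0370), and at 24 weeks Prtn3 and Ctsg passed without NeuT 24-week replicate 2 (0.0243 and 0.0332) and Ctsg without NeuT 24-week replicate 3 (0.0489). Of all 19505 genes these fits called 1363, 641 and 220, in that order. With all arrays 749 were called at 12 weeks and 274 at 24 weeks.

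Ordered by group mean, Prtn3 and Ctsg ran the same way, with NeuT 24 weeks highest, then NeuT 12 weeks, BALB/c 24 weeks and BALB/c 12 weeks. Elane ran NeuT 24 weeks, NeuT 12 weeks, BALB/c 12 weeks and BALB/c 24 weeks, and Mpo NeuT 24 weeks, BALB/c 12 weeks, NeuT 12 weeks and BALB/c 24 weeks. For each gene the ranges of neighbouring groups in its order overlapped, and no gene differed between ages past the threshold within NeuT or within BALB/c mice. In NeuT mice the differences, 24 minus 12 weeks, were 0.20 for Prtn3, 0.13 for Ctsg, 0.087 for Mpo and 0.058 for Elane (limma, adjusted p of 0.319 to 0.840; 1 of 4, Prtn3, had an unadjusted p under 0.05, against 12.6% of all genes). In BALB/c mice they were 0.079 for Prtn3, 0.056 for Ctsg, -0.10 for Mpo and -0.095 for Elane (adjusted p of 0.591 to 0.818; 0 of 4 had an unadjusted p under 0.05, against 15.3% of all genes), and without BALB/c 24-week replicate 1 they were 0.14 for Prtn3, 0.11 for Ctsg, 0.0054 for Mpo and 0.00021 for Elane. Of all genes 0.0359% were called in NeuT mice and 0.579% in BALB/c mice. The difference between the 24-week and the 12-week NeuT effect was 0.19 for Mpo, 0.15 for Elane, 0.12 for Prtn3 and 0.072 for Ctsg (limma, adjusted p of 0.834 to 0.962), and 0.0103% of all genes were called for it (0 of 4 had an unadjusted p under 0.05, against 6.50%). Without BALB/c 24-week replicate 1 these differences of effects were 0.081 for Mpo, 0.058 for Elane, 0.062 for Prtn3 and 0.021 for Ctsg. Age and any processing batch of the mice of that age cannot be told apart, since the labels give no batch.

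The measured differences of the 4 genes were unequal at 12 weeks, as read within each array, where a shift of the whole array cancels. A compression of signals near the top of the scale would not cancel. Over the 18 arrays Elane averaged 14.02, Mpo 13.88, Prtn3 13.58 and Ctsg 13.21. The highest signals were 14.49 to 14.58 on all arrays but BALB/c 24-week replicate 1. Whether compression had a part in these differences was not tested. The log2 signal of Ctsg minus that of Mpo on the same array was -0.68, -0.62, -0.60, -0.28 and -0.74 in NeuT mice at 12 weeks, against -0.83, -0.83, -0.84, -0.98 and -0.81 in BALB/c mice. The offset between 2 probe sets has no meaning of its own, but the NeuT values all lay above the BALB/c values. The difference between the groups was 0.27, with means of -0.58 ± 0.18 in NeuT and -0.86 ± 0.070 in BALB/c mice (SD, n = 5 each; exact two-sided permutation p = 0.00794, adjusted p = 0.0317 over 12 tests). Ctsg minus Elane, with means of -0.77 ± 0.13 in NeuT and -0.97 ± 0.079 in BALB/c mice, differed by 0.20, also without overlap (exact permutation p = 0.00794, adjusted p = 0.0317, n = 5 each). Mpo minus Elane went the other way, with means of -0.18 ± 0.055 in NeuT and -0.11 ± 0.016 in BALB/c mice, a difference of -0.072 (exact permutation p = 0.00794, adjusted p = 0.0317, n = 5 each). This call was lost after a further quantile normalization, with a difference of -0.056 (exact permutation p = 0.0794). The 2 groups of Mpo minus Elane were barely separate, with a highest NeuT value of -0.12912 and a lowest BALB/c value of -0.12909. Prtn3 minus Elane differed by 0.14 and Prtn3 minus Mpo by 0.21, and neither passed after adjustment (exact permutation p = 0.0238, adjusted p = 0.0571 for each). Ctsg minus Prtn3 differed by 0.064 (exact permutation p = 0.294). At 24 weeks none of the 6 differences passed, with exact permutation p-values of 0.114 to 0.629, and of 0.0571 to 0.486 without BALB/c 24-week replicate 1. These within-array comparisons were added after the values had been seen.

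**Figure D3:**
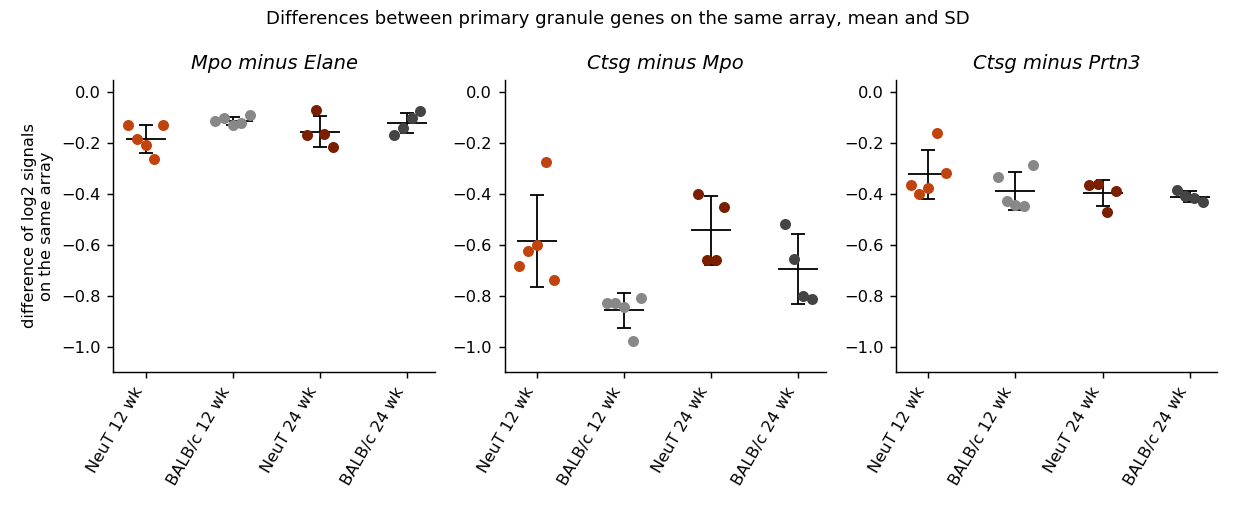
Differences of log2 signals between 2 genes on the same array, 1 point per mouse, with group mean and SD. Ctsg minus Mpo is higher in all 5 NeuT mice than in all 5 BALB/c mice at 12 weeks (means -0.58 and -0.86) and overlaps at 24 weeks, and Ctsg minus Prtn3 overlaps at both ages.

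Across the 18 arrays Prtn3 and Ctsg were the most alike of the 6 pairs by Pearson r, and Mpo and Ctsg the least. Prtn3 and Ctsg had a Pearson r of 0.933 and a Spearman rho of 0.895 (permutation p = 1e-05, the smallest possible, and 2e-05; adjusted p = 3e-05 and 6e-05 over 6 pairs). Elane and Mpo had an r of 0.917 and a rho of 0.831 (permutation p = 1e-05 and 8e-05; adjusted p = 3e-05 and 0.00016). Ctsg and Mpo had an r of 0.487 and a rho of 0.593 (permutation p = 0.0419 and 0.0106; adjusted p = 0.0419 and 0.0106). The other 3 pairs had an r of 0.591 to 0.777 and a rho of 0.699 to 0.849. All the genes share the arrays and their scale, so these values describe the arrays and not a shared control.

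The r of Prtn3 and Ctsg was as high within groups and ages as over all arrays, or nearly so. With each array taken as its deviation from its group mean, Prtn3 and Ctsg had an r of 0.847 and Elane and Mpo an r of 0.923. Within the 10 arrays of 12 weeks the r was 0.869 for Prtn3 and Ctsg and 0.654 for Elane and Mpo, and within the 8 arrays of 24 weeks it was 0.988 and 0.960 (0.985 and 0.871 without BALB/c 24-week replicate 1). Without the 2 arrays farthest from the median of the first-named gene, the r was 0.874 for Prtn3 and Ctsg and 0.669 for Elane and Mpo. The place of Elane depended on BALB/c 24-week replicate 1. Without it Elane had an r of 0.891 with Prtn3, 0.795 with Ctsg and 0.745 with Mpo, against 0.777, 0.717 and 0.917 with it, while Prtn3 and Ctsg had an r of 0.925. The r of Ctsg and Mpo was 0.405 without that array (adjusted permutation p = 0.106), -0.065 within 12 weeks and 0.757 within 24 weeks (0.865 without the array). On deviations from the group means of all 18 arrays it was 0.396 (adjusted permutation p = 0.102).

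The genes most like each of the 4 over the 18 arrays are given by Pearson r, as a description only. Those most like Ctsg were Hnmt (0.956), which inactivates histamine, G6pc3 (0.948), Anxa3 (0.942), Lair1 (0.937) and Gpr160 (0.936), and Prtn3 came 6th. Those most like Prtn3 were Ifitm2 (0.948), Daglb (0.942), Ddost (0.941), Rab31 (0.940) and Far2 (0.940), and Ctsg came 10th. Those most like Elane were Mpo (0.917), Rhog (0.915), Rbms1 (0.909), Rab5if (0.891) and Ly6c1 (0.886). Those most like Mpo were Elane (0.917), Ddx28 (0.889), Rab7 (0.879), Fbxw11 (0.877) and Eef1a1 (0.874), a translation elongation factor. After a further quantile normalization the values of G6pc3 with Ctsg (0.953) and of Far2 with Prtn3 (0.939) stayed close, while that of Eef1a1 with Mpo was 0.439 and that of Mpo with Elane 0.678, which placed Mpo 613th among the genes most like Elane.

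Of 8 measured genes listed as other contents of primary granules, 6 were called higher in NeuT preparations over both ages and 0 lower. Of all genes 6.47% were called as higher. The median log2 difference of the 8 was 0.28. The median of the 4 primary granule genes was 0.21 and that of all genes -0.017. Which cells the transcripts of these listed genes came from was not tested. Lyz2, lysozyme, rose by 0.56 (limma, adjusted p = 0.0113), Prss57, a further serine protease of the granule, by 0.43 (0.00161), Arsb, arylsulfatase B, by 0.35 (0.00160) and Man2b1, lysosomal alpha-mannosidase, by 0.32 (0.00285). At 12 weeks 1 of the 8 was called, Lyz2, which averaged 11.60 in NeuT and 10.85 in BALB/c mice, and at 24 weeks 3 were called, Prss57, Arsb and Man2b1. The shares of all genes called were 3.84% at 12 weeks and 1.40% at 24 weeks. Without 1 array the call of Lyz2 held in 5 of 10 fits, that of Prss57 in 3 of 8 and those of Arsb and Man2b1 in 4 of 8, and none of the 24-week calls held without BALB/c 24-week replicate 1.

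Of 15 genes for processing, packaging, sorting and release of granule proteins, 5 were higher over both ages and 0 lower, with a median of 0.19. The share of all genes called as higher was 6.47%. G6pc3, a glucose-6-phosphatase whose loss causes neutropenia in humans, rose by 0.37 (limma, adjusted p = 0.00178). Cst7, an inhibitor of cathepsin C, rose by 0.36 (0.00315), and Ctsc, cathepsin C itself, which cuts Elane, Prtn3 and Ctsg to their active forms, rose by 0.32 (0.0185). Rab27a, a GTPase of granule release, rose by 0.33 (0.00924). At 12 weeks 2 of the 15 were called, Ctsc by 0.57 (in 10 of 10 fits without 1 array) and G6pc3 by 0.37 (in 4 of 10), and at 24 weeks 0 (Cst7 had an adjusted p of 0.0506 and G6pc3 of 0.0726). Of all genes 3.84% were called at 12 weeks and 1.40% at 24 weeks. Ctsc averaged 10.92 in NeuT and 10.35 in BALB/c mice at 12 weeks, but 10.84 and 10.76 at 24 weeks. Its call over both ages held in 6 of 8 planned other settings.

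Among 7 inhibitors of the granule proteases Serpinb1a alone was called, at each age and over both. The shares of all genes called were 3.84% at 12 weeks, 1.40% at 24 weeks and 8.56% over both ages. This serpin inhibits the elastase and cathepsin G that stray from the granule, and averaged 11.99 in NeuT and 11.60 in BALB/c mice at 12 weeks, and 12.10 in NeuT and 11.71 in BALB/c mice at 24 weeks. Its log2 difference was 0.39 at both ages (limma, adjusted p = 0.00608 and 0.0276) and over both ages (0.000377). Without 1 array the 12-week call held in 10 of 10 fits and the 24-week call in 3 of 8, and the 24-week call held in 5 of 9 other settings. The other 6 inhibitors did not pass, and the median of the 7 over both ages was -0.047. Of the 7, 4 lay above the negative control median on every array, and Serpinb1a alone lay above 10.4 on every array. Serpina1b (4.95 to 5.80), Serpinb6a (6.97 to 7.35) and Serpina3n (6.71 to 7.43) lay under that median on at least 1 array. With signals this low, not passing does not show that these genes were unchanged, and the list median rests partly on them.

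Of 10 transcription factors of the promyelocyte, 2 were higher over both ages and 0 lower, with a median of 0.074. The share of all genes called as higher was 6.47%. At 12 weeks 0 of the 10 were called (3.84% of all genes) and at 24 weeks 1, Cebpe (1.40% of all genes). Cebpe, a C/EBP factor required for secondary granule genes, rose by 0.52 (limma, adjusted p = 0.00341). Cebpd rose by 0.24 (0.0489), a call that held in 4 of 18 fits without 1 array. Those that did not pass included Spi1, which encodes PU.1, Cebpa, Myb, Runx1 and Gfi1.

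Other genes of granulocyte-monocyte progenitors and promyelocytes were higher over both ages in 10 of 13, with 0 lower and a median of 0.28. The share of all genes called as higher was 6.47%. Clec12a, an inhibitory receptor of myeloid cells, rose by 0.63 (limma, adjusted p = 0.000305), Igsf6 by 0.44 (0.000801), Csf3r, the receptor of granulocyte colony-stimulating factor, by 0.44 (0.00262) and Mgst1 by 0.44 (0.00301). At 12 weeks 5 of the 13 were called and at 24 weeks 3, all higher, against 3.84% and 1.40% of all genes.

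**Figure D4:**
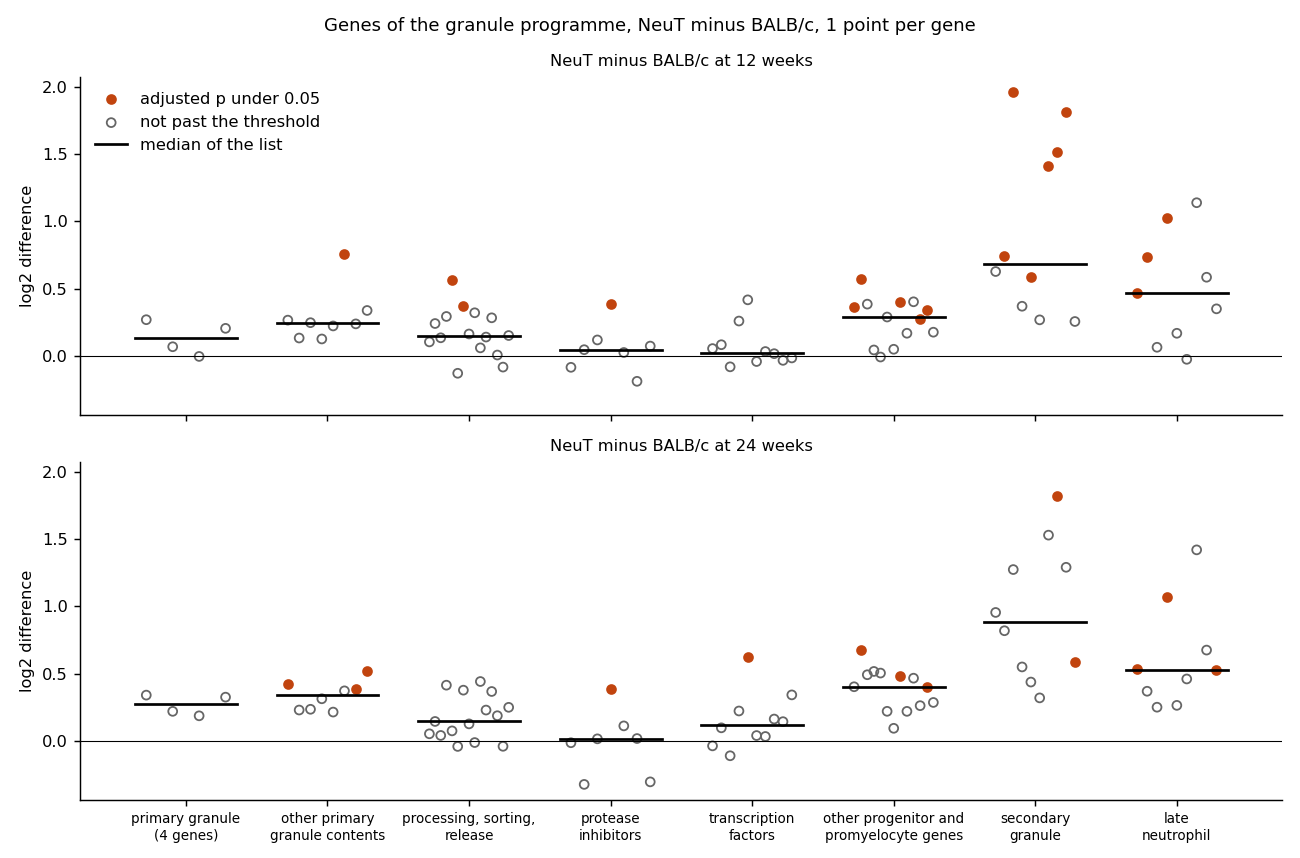
Log2 difference, NeuT minus BALB/c, at 12 weeks (top) and 24 weeks (bottom), 1 point per gene, for the 4 primary granule genes and 7 lists of related genes. Filled points have an adjusted p under 0.05 and black lines are list medians, which for secondary granule genes are 0.69 at 12 weeks and 0.89 at 24 weeks and for the 4 primary granule genes 0.14 and 0.27.

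Genes of later stages had larger median differences than the 4 primary granule genes. Of 10 secondary granule genes 10 were higher over both ages, with a median of 0.79, where 6.47% of all genes were called as higher. Ltf, lactoferrin, rose by 1.67 (limma, adjusted p = 0.00138), Chil3 by 1.61 (0.00188), Mmp8, neutrophil collagenase, by 1.55 (0.00148) and Lcn2, lipocalin 2, by 1.47 (0.00235). At 12 weeks 6 of the 10 were called and at 24 weeks 2, against 3.84% and 1.40% of all genes. The 24-week call of Ltf held in 1 of 8 fits without 1 array. The mean signal of the list overlapped between NeuT and BALB/c mice at 12 weeks (10.10 to 11.61 and 9.71 to 10.61) and at 24 weeks (10.36 to 11.40 and 9.83 to 10.43). Of 9 late neutrophil genes 7 were higher over both ages and 0 lower, with a median of 0.50, and Retnlg rose by 1.28 (0.00308), Mmp9 by 1.04 (0.000990), S100a8 by 0.63 (0.00328) and Il1b by 0.55 (0.00444). At each age 3 of these 9 were called. Chil3 and Mmp9 had a BALB/c mean under the negative control median at 12 weeks, so the size of their change is not known. Over all arrays the named secondary granule genes averaged 8.05 (Chil3) to 11.55 (Lcn2), and the 4 primary granule genes 13.21 to 14.02. Ngp, a secondary granule gene as bright as these (13.32), averaged 13.49 in NeuT and 13.23 in BALB/c mice at 12 weeks. At 24 weeks it averaged 13.55 and 12.97, a difference of 0.59 (limma, adjusted p = 0.0427). The difference between the lists, and the part of brightness in it, was not tested.

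Markers of other cells moved with the same groups. Over both ages 8.56% of all genes were called in either direction and 6.47% as higher. At single ages the shares were 3.84% at 12 weeks and 1.40% at 24 weeks. Monocyte markers were higher over both ages in 8 of 9, with a median of 0.44, and Ms4a6d rose by 1.20 (limma, adjusted p = 0.000285), Ccr2 by 0.86 (5.27e-05), F13a1 by 0.51 (0.00152) and Ly86 by 0.50 (0.00175). Their mean signal ran from 10.03 to 10.41 in NeuT and from 9.52 to 9.75 in BALB/c mice at 12 weeks, and from 9.98 to 10.60 in NeuT and from 9.86 to 10.02 in BALB/c mice at 24 weeks. B-cell markers were lower over both ages in 6 of 8, with a median of -0.71, and Pax5 fell by 0.88 (0.00780), Cd79b by 0.76 (0.00656), Vpreb3 by 0.73 (0.0193) and Blk by 0.71 (0.00371). Their mean signal ran from 9.85 to 11.36 in NeuT and from 11.27 to 11.52 in BALB/c mice at 12 weeks, and from 10.16 to 11.36 in NeuT and from 11.37 to 11.62 in BALB/c mice at 24 weeks. Of 6 T and NK cell markers 3 were lower over both ages, Gzma, which fell by 0.87 (0.000377), Cd2 by 0.81 (0.00118) and Cd3e by 0.36 (0.0155). Taken age by age, 7 of 9 monocyte markers were called higher at 12 weeks and 1 at 24 weeks. Of 8 B-cell markers 0 were called at 12 weeks and 1, lower, at 24 weeks. For T and NK cells 0 of 6 markers were called at 12 weeks, where 2 had a positive difference. At 24 weeks 3 of them were called lower.

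Of 7 erythroid markers 0 were called over both ages, and the smallest adjusted p-values were those of Epor (-0.27, limma adjusted p = 0.0577) and Hemgn (-0.34, 0.0775). Of 7 cycling-cell markers 0 were called, and Bub1 and Birc5 had differences of 0.15 and -0.085 (adjusted p = 0.231 and 0.281). Of 12 stromal markers 2 were higher over both ages, Igfbp5 by 0.45 (0.0195) and Vcam1 by 0.32 (0.00326), against 6.47% of all genes. At 12 weeks 0 of the 12 were called and at 24 weeks 2. Among the antigens of the purification, Itgam, which encodes CD11b, rose by 0.49 over both ages (limma, adjusted p = 0.00283) and Ptprc fell by 0.26 (0.0343), while Itgb1 (0.012, 0.923) and Cd44 (0.034, 0.740) did not pass. The part of these other cells in the differences of Prtn3 and Ctsg was not tested.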

How the data were processed

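Per the submitters' processing notes the authors made the deposited log2 signals with RMA and the Transcriptome Analysis Console (versions not given); the array signals are biotin-labelled total RNA of 18 mice. The genome build used is not given in the sources used here.

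The table held 29129 probe sets, and 19572 had 1 gene symbol. Of 55 symbols with several probe sets the one with the highest mean was kept, leaving 19505 genes; controls (5222 negative, 1324 positive, 441 other) and 2570 unnamed clusters were left out. No filter on dim genes was applied. limma 3.58.1 in R 4.3.3 was fitted with 1 mean per group over all 18 arrays (14 residual and 8.68 prior degrees of freedom), two-sided, with Benjamini-Hochberg adjustment over all genes and a threshold of 0.05. The average effect is the mean of the 12-week and 24-week differences. Replicates are different mice, and the number of arrays limits the precision. The fit was tested on simulated data. Permutations were exact or 100000 resamples (Python 3.11.15, scipy 1.17.1). Figures used matplotlib 3.10.9.

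Of 138 genes in 14 lists 125 were measured. Named are, per list, at most 4 called genes with the largest changes or, with none called, the 2 with the smallest p, and for each of the 4 genes the 5 with the highest r. The transcription factors that did not pass, and the stromal genes and inhibitors named for their signal level, were named after their values were seen. The members and lists were chosen with earlier results of these data known. Alternatives were leaving out arrays, array weights, fits of only the groups compared, trended and robust variances, averaged probe sets, leaving out dim genes (mean under 10.4), and further normalization by quantiles, cyclic loess or medians.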

Additional observations from a re-analysis of the deposited data

Results flagged for a closer look

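Chance marks about 1 in 20 groups by the gap test used here, which asks whether the highest or lowest mouse of a group lies far from the others relative to the group's range. Of 24 groups tested 5 were marked. Ctsg in BALB/c 12-week replicate 4 was 12.83, against 13.04 to 13.11 in the other mice of its group. Mpo in NeuT 12-week replicate 4 was 13.73, against 13.89 to 13.96, and this array also correlated least with the others (median r across genes 0.987). Elane in BALB/c 24-week replicate 1 was 13.62, against 13.95 to 14.02. The highest signal of that same array was 13.92, against 14.50 to 14.52 in its group. The mean signal of the 100 brightest other genes was 13.46 in NeuT 24-week replicate 1, against 13.49 in the other mice of its group.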

How the results depend on the processing

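Over both ages, 2 of the 4 genes were called in every alternative and every fit without 1 array. At 12 weeks the count of the 4 genes called was 0, and it was 2 with array weights and 1 with dim genes left out, with only the groups compared and with trended variances (0 to 1 without 1 array). At 24 weeks it was 0, and 2 with dim genes left out and with trended variances (0 to 2 without 1 array). Of all genes these settings called 2088, 473, 927 and 817 at 12 weeks, in the order named, against 749 in the main fit. At 24 weeks they called 136 and 270, against 274. With dim genes left out fewer genes were tested. Mpo at 12 weeks (-0.0021) changed sign with array weights (0.030), median centring (0.0072), without BALB/c 12-week replicates 1 (0.0078) and 2 (0.011), and without NeuT 12-week replicate 4 or the 3 least correlated arrays (0.036 each; -0.021 to 0.036 without 1 array). After a further quantile normalization the 24-week differences were 0.16 for Elane, 0.10 for Mpo, 0.21 for Prtn3 and 0.23 for Ctsg. The 24 minus 12 week difference in BALB/c mice changed sign for Elane with cyclic loess (0.0025), further quantile normalization (0.029), the same without BALB/c 24-week replicate 1 (0.027) and without that array alone (0.00021), and for Mpo with the last 3 of these (0.0071, 0.039 and 0.0054); without 1 array Elane ran from -0.13 to 0.00021 and Mpo from -0.16 to 0.0054. The difference between the ages' NeuT effects changed sign for Ctsg with array weights (-0.012), further quantile normalization (-0.023) and the same without that array (-0.0054), and for Prtn3 with array weights (-0.0075). Bub1 at 24 weeks changed sign with array weights (-0.011), without BALB/c 24-week replicate 3 (-0.038) and without the 3 arrays (-0.0011), and ran from -0.038 to 0.19 without 1 array. The cause of these changes was not tested. The r of Mpo with Ctsg was 0.322 after further quantile normalization, 0.238 after cyclic loess and 0.405 without BALB/c 24-week replicate 1, and that of Mpo with Prtn3 was 0.441 after cyclic loess, none past the threshold.

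The number of all genes called at 12 weeks was 749, and 2088 with array weights and 473 with dim genes left out. At 24 weeks it was 274, and 577 with array weights, 119 with cyclic loess, 136 with dim genes left out, 122 with further quantile normalization, 45 with this and no BALB/c 24-week replicate 1, 1 with only the groups compared and 15 without the 3 arrays. Over both ages it was 1670, and 758 with dim genes left out and 873 without the 3 arrays. For the difference between the effects it was 2, and 10 with array weights, 4 with dim genes left out, further quantile normalization or trended variances, 1 with median centring or with further quantile normalization and no BALB/c 24-week replicate 1, and 0 without the 3 arrays. Between ages it was 113 in BALB/c mice, and 2375 with array weights, 186 with cyclic loess, 214 with further quantile normalization, 0 with this and no BALB/c 24-week replicate 1, 202 with median centring, 183 with only the groups compared and 1277 without the 3 arrays. In NeuT mice it was 7, and 72 with array weights, 4 with cyclic loess, 17 with dim genes left out, 2 with further quantile normalization, 19 with median centring, 0 with only the groups compared or without the 3 arrays, and 13 with trended variances.

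Without 1 array the counts ran from 230 (BALB/c replicate 2) to 1363 (NeuT replicate 5) at 12 weeks, from 8 (NeuT replicate 1) to 641 (NeuT replicate 2) at 24 weeks, from 979 to 2152 over both ages, from 1 to 3 for the difference, from 1 to 177 between ages in NeuT mice and from 0 to 589 in BALB/c mice. No paired analysis was possible because the labels give mouse IDs and no replicate numbers shared between groups.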
